A study of Mus musculus with 12 samples.

Results

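The rodent microRNA families miR-669, miR-467, miR-466 and miR-297 are, for the most part, encoded in a large intronic cluster of Sfmbt2, a Polycomb-related gene. Members were all mouse miRNAs on the array whose names begin with one of these 4 numbers, both arms of a precursor included, starred or not. They were 39 of the 650 miRNAs on the array, with 3 of the miR-297 family, 14 of miR-466, 10 of miR-467 and 12 of miR-669. The families were described in mouse embryonic fibroblasts (MEFs) of the C57BL/6 strain. XBP1WT cells (wild type) and XBP1KO cells (deficient in XBP1) were left untreated or kept in 2 ug/mL tunicamycin over 12 h or 24 h. This gave 6 groups of 2 arrays, which the design text calls independent experiments, and so few arrays limit how precise each value can be. The labels do not say how XBP1 was deleted or how many embryos gave the cells.

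A miRNA is cut as a short duplex from a hairpin precursor, and its seed, bases 2 to 8, pairs with target mRNAs. Either arm of a hairpin can be kept, and in the older names used on this array a star marks the arm that was then taken as the minor product. The Sfmbt2 cluster is known from embryonic stem cells and the placenta, where Sfmbt2 is imprinted, and many of its mature miRNAs carry short repeats rich in U and G or in A and C. Tunicamycin blocks N-linked glycosylation and so fills the endoplasmic reticulum with unfolded protein. XBP1 is a transcription factor of the resulting unfolded protein response, made from an mRNA that the sensor IRE1 splices.

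Mature sequences from RefSeq (GRCm38.p6) were matched to 5 of the 39 members, of which 4 were among those tested. They are shown because they carry the short repeats of these families; the seed is in capitals. The array's miR-466i was taken as the 3p arm, the current name of that sequence.
miR-466i: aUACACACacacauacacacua
miR-467f: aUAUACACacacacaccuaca
miR-467g: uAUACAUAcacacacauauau
miR-466j: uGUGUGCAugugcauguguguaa
miR-466k: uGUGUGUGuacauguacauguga
The 5 seeds all differed from each other, and no other mature sequence in the table had any of them. ACACAC occurred in miR-466i, miR-467f and miR-467g, and UGUGUG in miR-466j and miR-466k. A and C made up 86.4% of the bases of miR-466i, 85.7% of miR-467f and 71.4% of miR-467g. G and U made up 73.9% of miR-466j and 69.6% of miR-466k. Of the 1679 mature mouse sequences in the table, 39 (2.32%) held one or the other of the 2 motifs, searched as written, without the reverse strand.

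In the gene table of the same assembly, not all members lay in Sfmbt2. The table had 81 miRNA genes of the 4 families, 71 of them within Sfmbt2 and 10 elsewhere. All gene copies of 31 members were within Sfmbt2. Another 3 members, miR-297a*, miR-466f-5p and miR-466f-3p, had copies both there and elsewhere. The remaining 5 had copies elsewhere only. These were miR-466i within Cdk13, miR-467f within Fxr2, miR-467g within Grk4, miR-466k within Gm31419 and miR-466j with no host gene in the table. An array probe for a member with several copies cannot tell which copy its RNA came from.

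Signals are given as scaled signals, in which the 75th percentile of the 95 mouse miRNAs present on all 12 arrays was made equal between arrays. The unscaled total of mouse miRNA signal ran from 94809 to 185591 on the untreated arrays and from 14076 to 78153 on the tunicamycin arrays, and the scaling factors from 0.318 to 3.78. All untreated arrays lay on 1 slide and all tunicamycin arrays on another, so tunicamycin and slide cannot be told apart in any comparison with untreated cells. Markers set for 8 cell types were checked as well. All 7 fibroblast markers were detected on at least 1 array, and none of the 6 blood, 6 epithelial or 1 liver markers was. By the same rule 3 of 15 embryonic stem cell, 5 of 6 neural, 1 of 4 muscle and 1 of 2 endothelial markers were detected. The fibroblast marker miR-145 and the endothelial marker miR-126-3p were each detected on 1 array only. Of the 650 miRNAs, limma tested 256 from mouse, each detected on both arrays of 1 group or more, and a call is a Benjamini-Hochberg adjusted p under 0.05 over all 256.

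Of the 39 members, 31 were detected on at least 1 array, 29 were tested, 11 were above the floor of scaled signal (10.0) on every array, and 9 were detected on all 12 arrays. A member tested because of its 12 h arrays had to be higher there than where it was not detected, so counts over the tested members are read as descriptions. The 10 members that were not tested were miR-297b-5p, miR-466a-5p, miR-466b-5p, miR-466d-5p, miR-466k, miR-467d, miR-669g, miR-669h-5p, miR-669j and miR-669k. Of these, miR-466b-5p was detected on 1 array and miR-669j on 2 arrays, all at 12 h, and the other 8 on none. The number of members detected per array was 22 and 20 in untreated wild type cells, 29 and 30 at 12 h, and 13 and 21 at 24 h. In knockout cells it was 25 and 23, then 28 and 28, then 10 and 23. Detection of the families was thus widest at 12 h in both genotypes, although the same arrays had less total signal than the untreated ones. Among the 572 other mouse miRNAs, the number detected on both arrays of a group went the other way, from 167 untreated to 137 at 12 h in wild type and from 184 to 161 in knockout.

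Of the summed, unscaled mouse signal of untreated wild type cells the families held 4.35% and 3.78%. At 12 h of tunicamycin they held 23.2% and 26.0%, and at 24 h 2.64% and 7.71%. In knockout cells the shares were 2.90% and 2.66% untreated, 21.7% on each array at 12 h, and 1.02% and 6.35% at 24 h. The 12 h arrays stood apart from all other arrays in both genotypes, and the 24 h arrays of a genotype lay on either side of its untreated ones. A share of signal weighs members by the brightness of their probes and is not a share of molecules. In wild type the miR-466 family went from 1.25% and 0.947% untreated to 9.9% and 11% at 12 h, and the miR-467 family from 1.3% and 1.1% to 7.61% and 8.39%. The plot of the families' share by array shows all 4 families.

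**Figure D1:**
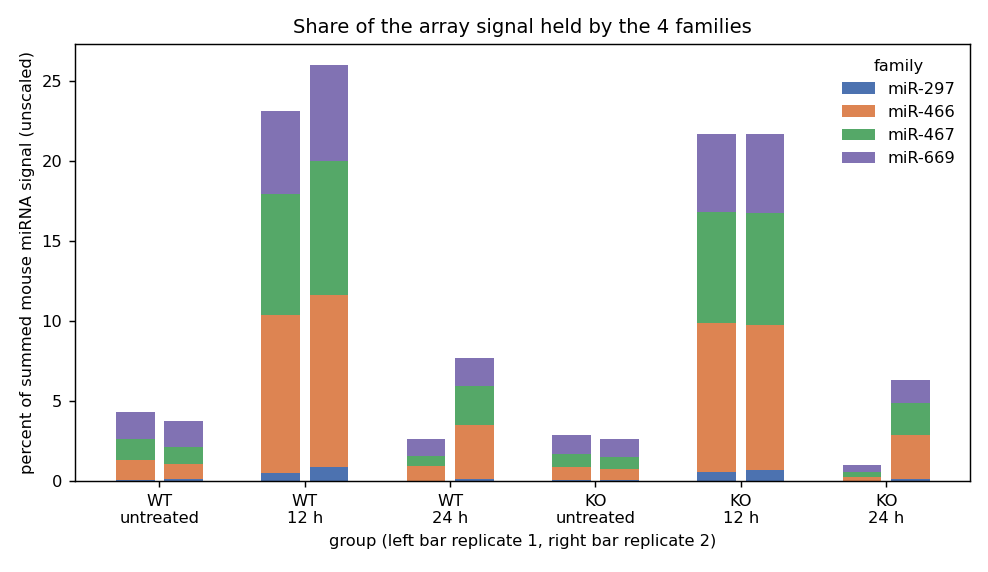
Percent of the summed, unscaled mouse miRNA signal of each array held by each family (stacked bars, 1 bar per array, 2 arrays per group). The 4 arrays at 12 h of tunicamycin lie between 21.7% and 26.0%, and the other 8 between 1.02% and 7.71%.

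The first comparison asked how the families stood after 12 h of tunicamycin. Of the 29 tested members 22 rose and 2 fell in wild type cells, where 25.4% of all tested miRNAs rose and 25.4% fell. In knockout cells 21 rose and 2 fell, against 23.8% and 25.4% of all tested miRNAs. The members' median log2 difference was 3.59 for wild type and 3.58 for knockout cells, while the median over all tested miRNAs was -0.09 and 0.00. The 21 members that rose in knockout cells all rose in wild type cells too, and the same 2 members, miR-467a and miR-467b, fell in both. By family, 1 of 2 members of miR-297, 9 of 10 of miR-466, 5 of 9 of miR-467 and 7 of 8 of miR-669 rose in wild type, with 1, 8, 5 and 7 in knockout. Calls in either direction made up 50.8% of all tested miRNAs in wild type and 49.2% in knockout. The members' counts depended on single arrays and ran from 13 to 25 in wild type and from 13 to 26 in knockout with 1 of the 12 left out. The number of members called in wild type was 14 without the second untreated array and 13 without the second 12 h array. In knockout it was 13 without the first or without the second untreated array and 14 without the first 12 h array.

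**Figure D2:**
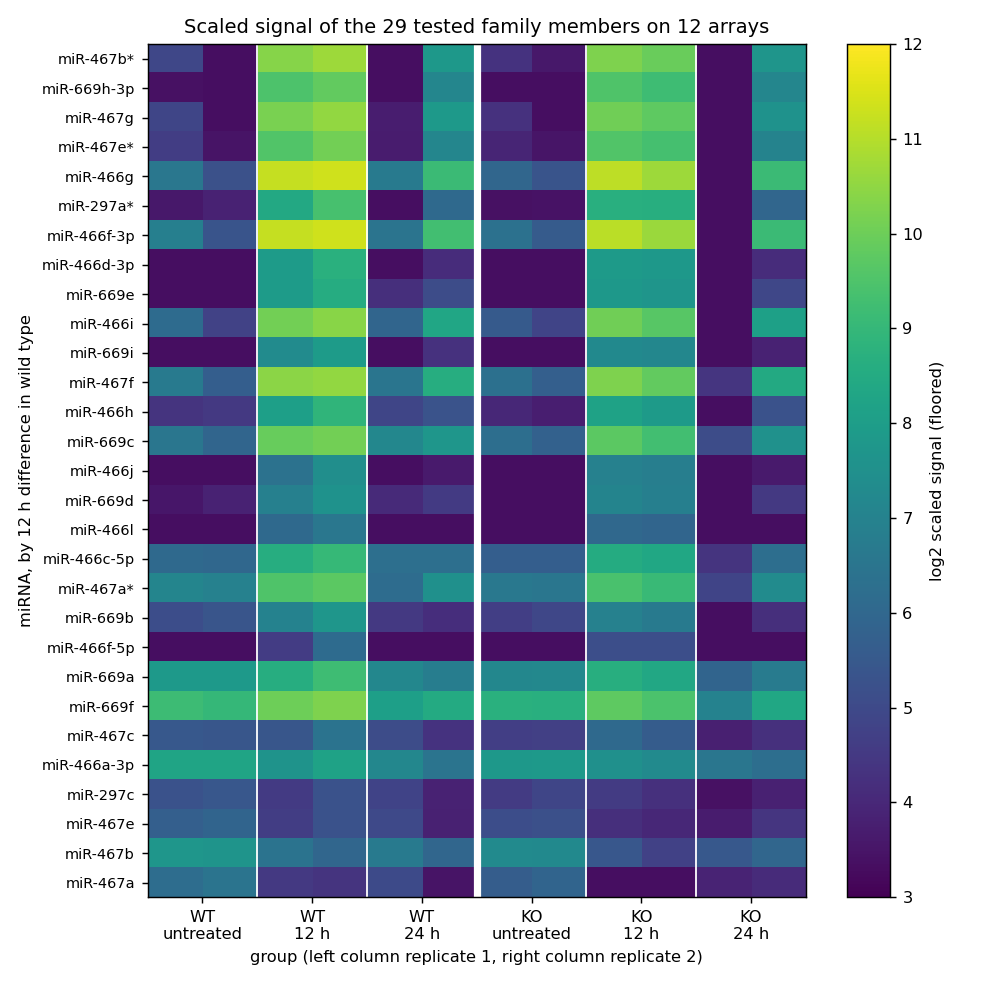
Log2 scaled signal of the 29 tested members (rows, in the order of their 12 h difference in wild type) on the 12 arrays (columns, 2 per group, replicate 1 on the left). Most rows are bright on the 4 arrays at 12 h; the 2 lowest rows, miR-467b and miR-467a, are brightest on the untreated arrays, and on each 24 h group the right column is brighter than the left for most rows above miR-466f-5p.

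The widest differences were those of miRNAs that were close to the floor before treatment. miR-467b*, a starred arm, had scaled signals of 30.1 and 7.34 in untreated wild type cells, 1317 and 1635 at 12 h, and -13.2 and 222 at 24 h. In knockout cells they were 19.7 and 12.1, then 1220 and 986, then -13.5 and 208. A value below 0 was dimmer than the background that the scanner software subtracted. All 4 arrays at 12 h were far above the rest, and the 24 h arrays spanned the untreated ones. The 12 h rise of miR-467b* was 6.40 in wild type (SE 1.74, limma adjusted p = 0.0200) and 6.15 in knockout (SE 1.74, limma adjusted p = 0.0231).

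miR-467g, encoded within Grk4, had 29.5 and 9.05 untreated, 1156 and 1492 at 12 h and 13.2 and 233 at 24 h in wild type. In knockout it had 19.3 and 10.1, 1051 and 864, and -5.74 and 195. Its 12 h rise was 6.25 (SE 1.67, limma adjusted p = 0.0186) in wild type and 6.09 (SE 1.67, limma adjusted p = 0.0208) in knockout. The pattern of high and low arrays was that of miR-467b*, although no gene copy of miR-467g lies in Sfmbt2. miR-669h-3p was not detected in untreated wild type cells (10.6 and 5.5) and had 710 and 905 at 12 h. In wild type it was at least 77.7-fold higher at 12 h (limma adjusted p = 0.00982). Such bounds set the mean of the brighter group against the floor, or against the dim miRNA's own signal or the dimmest detected signal where these were higher. In knockout cells miR-669h-3p went from 8.98 and 6.66 to 743 and 589, a log2 difference of 6.04 (SE 1.45, limma adjusted p = 0.0114) with both untreated arrays at the floor.

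miR-467e* had 24.8 and 11.2 untreated and 752 and 1090 at 12 h in wild type, and 15.4 and 11.5 against 760 and 655 in knockout. Its rises were 5.76 and 5.73 (SE 1.41, limma adjusted p = 0.0127 in each genotype). miR-466g had 94.3 and 38.0 untreated and 2379 and 2617 at 12 h in wild type, and 63.0 and 40.7 against 2210 and 1637 in knockout. For both miRNAs the groups were far apart, but the untreated wild type arrays differed from each other by more than 2-fold. miR-466g rose by 5.38 in wild type (SE 1.74, limma adjusted p = 0.0359) and 5.23 in knockout (SE 1.74, limma adjusted p = 0.0406).

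miR-466f-3p showed how close some calls were to the threshold. It had 119 and 40.5 untreated and 2368 and 2636 at 12 h in wild type, and 81.7 and 48.0 against 2137 and 1595 in knockout. The groups did not overlap in either genotype. The log2 difference was 5.17 in wild type (SE 1.80, limma adjusted p = 0.0470), which passed, and 4.88 in knockout (SE 1.80, limma adjusted p = 0.0576), which did not. This miRNA alone separates the counts of 22 and 21.

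miR-297a* had 12.0 and 14.4 untreated and 349 and 669.3 at 12 h in wild type, and 10.5 and 10.9 against 413 and 404 in knockout. It was the miR-297 member that rose, by 5.20 in wild type (SE 1.07, limma adjusted p = 0.00602) and 5.26 in knockout (SE 1.07, limma adjusted p = 0.00595). miR-466d-3p had 6.34 and 4.73 untreated and 248 and 416 at 12 h in wild type, and 4.42 and 3.40 against 242 and 223 in knockout. Its untreated arrays lay under the floor in both genotypes, so its differences of 5.00 and 4.53 are held down by the floor, and their SE of 0.40 is too small because values at the floor have no spread.

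Members detected on every array do not rest on the floor in this way. miR-467f, encoded within Fxr2, had 105 and 51.1 untreated, 1387 and 1484 at 12 h and 90.2 and 390 at 24 h in wild type. In knockout it had 79.8 and 52.7, 1227 and 906, and 21.1 and 350. The rise at 12 h was 4.29 (SE 1.27, limma adjusted p = 0.0275) and 4.02 (SE 1.27, limma adjusted p = 0.0351). miR-669c had 92.9 and 61.2 untreated against 965 and 1092 in wild type, and 77.0 and 55.0 against 849 and 626 in knockout. It rose by 3.77 (SE 0.72, limma adjusted p = 0.00479) and 3.49 (SE 0.72, limma adjusted p = 0.00625).

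miR-466c-5p had 68.1 and 64.6 untreated and 386 and 522 at 12 h in wild type, and 51.2 and 51.9 against 372 and 332 in knockout. It rose by 2.76 and 2.77 (SE 0.53, limma adjusted p = 0.00510 and 0.00493). Its untreated arrays were nearly equal, and the 12 h arrays lay well clear of them. miR-669a had 228 and 230 against 393 and 585 in wild type and 145 and 148 against 401 and 340 in knockout. It had the smallest rise that passed in both genotypes, 1.07 (SE 0.31, limma adjusted p = 0.0244) and 1.34 (SE 0.31, limma adjusted p = 0.00967). The call on miR-669a depends on the scaling, since without scaling its difference was -0.48 in wild type and -0.46 in knockout.

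The other members that rose in both genotypes were miR-466h, miR-466i, miR-466j, miR-466l, miR-466f-5p, miR-467a*, miR-669b, miR-669d, miR-669e and miR-669i. Several of them were not detected on the untreated wild type arrays, and at 12 h miR-669e was at least 30.4-fold, miR-669i at least 19.8-fold, miR-466j at least 12.0-fold and miR-466l at least 8.02-fold higher there. In knockout cells miR-669i was at least 14.9-fold, miR-466j at least 12.0-fold and miR-466l at least 6.36-fold higher. miR-669f, miR-467c, miR-466a-3p, miR-297c and miR-467e passed in neither genotype. miR-669f was 1.06 higher in wild type (limma adjusted p = 0.0681) and 0.92 in knockout (limma adjusted p = 0.0998), although its 12 h arrays lay above the untreated ones, at 1022 and 1217 against 572 and 504 in wild type and at 874 and 704 against 424 and 405 in knockout.

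The 29 tested members had 75 probes. Both 12 h arrays were above both untreated arrays in 61 of these probes in wild type and 63 in knockout, against 233 and 266 of the 634 probes of all tested miRNAs. These probes make up the same signals that were tested, so the counts describe the calls and add no test. miR-466f-5p, although called higher, had such a difference in 1 of 4 probes in wild type and 2 of 4 in knockout. In unscaled signal, 20 of the 29 members had both 12 h arrays above both untreated arrays in each genotype, against 23.0% of all 256 tested miRNAs in wild type and 23.0% in knockout. miR-669a and miR-669b, which rose in scaled signal, were not among them.

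**Figure D3:**
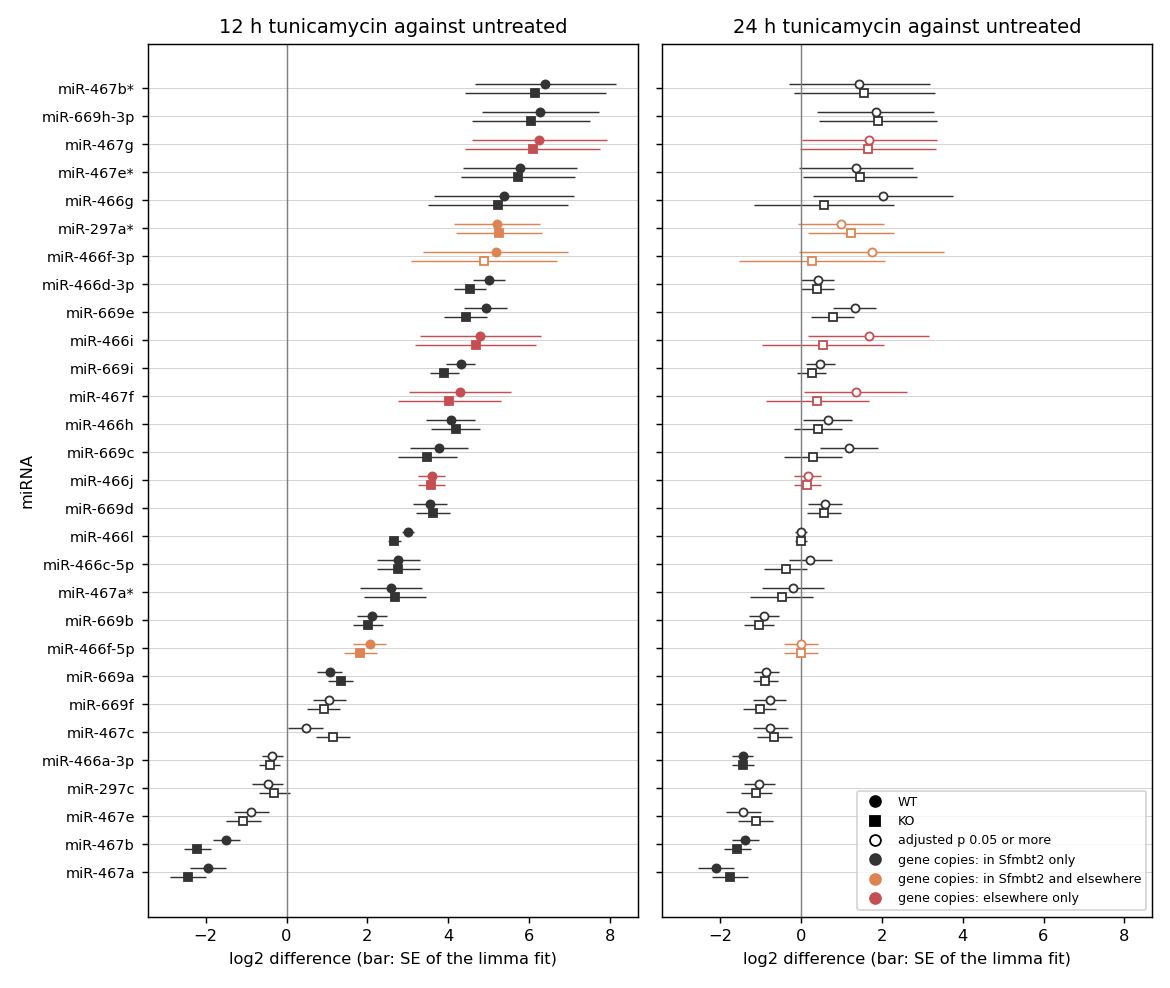
Log2 difference from untreated cells of the 29 tested members at 12 h (left) and 24 h (right) of tunicamycin in wild type (circles) and knockout (squares); bars are the SE of the limma fit, filled symbols passed at an adjusted p under 0.05, and colour gives where the gene copies lie. At 12 h filled symbols run from miR-467b* (6.40 and 6.15) down to miR-669a (1.07 and 1.34), with miR-467b and miR-467a below 0; at 24 h only miR-466a-3p, miR-467b and miR-467a are filled, all below 0.

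The arms of 7 precursors were both on the array, and for the miR-467 precursors the arms moved apart. miR-467a had scaled signals of 74.7 and 89.2 untreated and 22.6 and 20.2 at 12 h in wild type, and 50.1 and 59.3 against 8.36 and 8.44 in knockout. Its other arm, miR-467a*, had 137 and 126 against 726 and 852 in wild type and 97.2 and 92.5 against 678 and 547 in knockout. miR-467a fell by 1.93 (SE 0.44, limma adjusted p = 0.00957) in wild type, where 1 of 2 arrays at 12 h detected it. In knockout, where neither did, it was at least 5.43-fold lower (limma adjusted p = 0.00379). miR-467a* rose by 2.58 (SE 0.77, limma adjusted p = 0.0284) and 2.68 (SE 0.77, limma adjusted p = 0.0244). The fall of miR-467a depends on the background correction, as it turned to 0.48 in wild type and 0.36 in knockout with the normexp method, neither of which passed. With the scanner software's total gene signal it was -1.05 (limma adjusted p = 0.445) and -1.41 (limma adjusted p = 0.318). Leaving out untreated replicate 2 of the wild type gave -1.80 there (limma adjusted p = 0.0561).

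miR-467b had 211 and 201 untreated and 85.7 and 63.1 at 12 h in wild type, and 158 and 155 against 43.0 and 26.7 in knockout. It was detected on all 12 arrays and fell by 1.49 (SE 0.33, limma adjusted p = 0.00851) in wild type and by 2.21 (SE 0.33, limma adjusted p = 0.00179) in knockout, while miR-467b* rose. The fall of miR-467b did not pass with normexp, at -0.16 (limma adjusted p = 0.643) and -0.47 (limma adjusted p = 0.168), nor with the total gene signal of the scanner software, at -1.56 (limma adjusted p = 0.278) and -0.19 (limma adjusted p = 0.958). With the second wild type array at 12 h left out it was -1.25 in wild type (limma adjusted p = 0.0555). miR-467e had 53.0 and 60.3 against 24.9 and 38.5 in wild type and 35.2 and 37.1 against 18.5 and 16.0 in knockout. All its 12 h arrays were below its untreated arrays, but the differences of -0.87 (limma adjusted p = 0.142) and -1.07 (limma adjusted p = 0.0744) did not pass. In each of the 3 pairs the starred arm was the one that rose.

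Of the 4 other pairs, the 5p arms of miR-466a, miR-466d and miR-669h were detected on no array, while miR-466d-3p and miR-669h-3p rose. miR-466a-3p, detected on all arrays, did not pass at 12 h, with 306 and 303 untreated against 198 and 289 in wild type and 224 and 228 against 183 and 158 in knockout. Its differences were -0.35 (limma adjusted p = 0.312) and -0.41 (limma adjusted p = 0.248). miR-466f-5p rose as well, from a level not detected in untreated cells, with 4.56 and 4.51 against 24.3 and 71.2 in wild type and 4.26 and 2.06 against 35.7 and 35.6 in knockout, at least 4.15-fold and 3.55-fold.

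**Figure D4:**
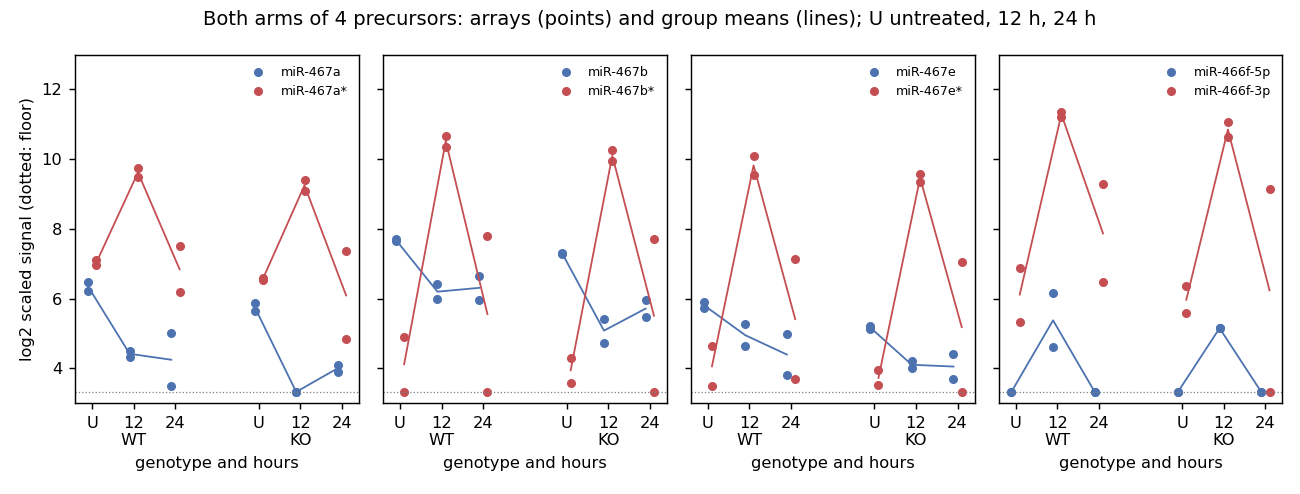
Log2 scaled signal of both arms of miR-467a, miR-467b, miR-467e and miR-466f (blue and red points, 1 per array; lines join group means; the dotted line is the floor) in untreated cells (U) and at 12 h and 24 h of tunicamycin in each genotype. The red arm is highest at 12 h in all 4 panels, whereas miR-467a and miR-467b are lower at 12 h than untreated (-1.93 and -1.49 in wild type).

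The rises at 12 h were found both in members of the Sfmbt2 intron and in members encoded elsewhere. Of the 22 tested members with copies in Sfmbt2 only, 15 rose and 2 fell in each genotype, with medians of 2.88 in wild type and 2.73 in knockout. All 4 tested members with copies elsewhere only rose in both genotypes, with medians of 4.54 and 4.35. Of these, miR-466j and miR-467g were detected on both arrays of a group only at 12 h, so being tested favoured their rise. The same held for some members with copies in Sfmbt2 only, such as miR-466l and miR-669i. The other member with copies elsewhere only, miR-466k, was detected on no array and not tested. Of all tested miRNAs, 25.4% rose in wild type and 23.8% in knockout, and 25.4% fell in each. Among these, miR-466i, named here for its place in Cdk13 after its values were known, had 70.1 and 27.2 untreated, 1097 and 1340 at 12 h and 60.5 and 323 at 24 h in wild type. In knockout it had 46.3 and 28.5, then 1070 and 809, then 9.31 and 279. miR-466j, chosen in the same way, had 1.94 and 2.55 untreated and 83.6 and 175 at 12 h in wild type, and 2.11 and 1.84 against 125 and 115 in knockout. With 4 members in the smaller set the difference between the sets was not tested. By the gene table, then, the name Sfmbt2 cluster does not cover all the members whose probes rose. Whether these probes also bound similar repeat sequences of other members was not tested.

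The same letters are found in miRNAs of no relation to these families. Of the 227 tested miRNAs outside them, only 56 (24.7%) were matched to a RefSeq mature sequence, and 9 of these held UGUGUG or ACACAC. The rest could not be searched. The 3 shown carry the longest runs or the widest difference among them and were chosen with their values known.
miR-574-5p: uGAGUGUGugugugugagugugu
miR-574-3p: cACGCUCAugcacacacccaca
miR-1187: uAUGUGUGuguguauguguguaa
Of these 9 miRNAs, 7 rose and 1 fell at 12 h in each genotype, with a median of 2.82 in wild type and 2.75 in knockout. Of all tested miRNAs 25.4% rose and 25.4% fell in wild type, and 23.8% and 25.4% in knockout. Of the 7, miR-294, miR-329 and miR-672 were detected on both arrays of a group only at 12 h. They were tested because of those arrays, which favoured a rise, so the count is read as a description. miR-574-3p had 78.1 and 28.4 untreated and 2790 and 2962 at 12 h in wild type, and 51.6 and 33.6 against 2481 and 1779 in knockout. It rose by 5.93 (SE 1.82, limma adjusted p = 0.0308) and 5.66 (SE 1.82, limma adjusted p = 0.0373). miR-1187 rose by 3.51 (SE 0.69) and 3.16 (SE 0.69), and miR-574-5p by 2.82 (SE 0.58) and 2.6 (SE 0.58). The others that rose were miR-206, miR-294, miR-329 and miR-672. miR-362-3p and miR-329 share a seed that holds ACACAC, yet they moved apart. miR-362-3p fell by 1.80 (SE 0.25) and by 0.86 (SE 0.25), whereas miR-329 rose by 1.53 (SE 0.27) and 1.04 (SE 0.27). let-7b, with UGUGUG near its 3′ end, did not pass in either genotype.

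Probes for viral miRNAs, which have no matching RNA in uninfected mouse cells, were read beside these results. Of the 39 viral miRNAs, 2 were detected on both untreated arrays in each genotype. At 12 h, 1 was detected on both arrays in wild type and 2 in knockout. The probes of mghv-miR-M1-2, a miRNA of a mouse herpesvirus, were detected on all 12 arrays. Their scaled signal was 78.4 and 18.9 untreated, 671 and 386 at 12 h and 152 and 102 at 24 h in wild type. In knockout it was 51.3 and 13.2, then 675 and 202, then 47.4 and 86.2. This signal was thus highest on the same 4 arrays as that of the members that rose, but it was picked for its rise at 12 h. mcmv-miR-M23-1-5p went the other way and was detected on the untreated arrays only. It had 8.90 and 9.66 untreated against -5.92 and -4.93 at 12 h in wild type. In knockout it had 6.35 and 5.78 against 0.88 and 4.51, and all these values lay under the floor. The summed signal of the 15 embryonic stem cell markers also moved with the families, from 54.9 to 56.1 untreated up to 234 to 426 at 12 h in wild type and from 29.5 to 42.5 up to 212 to 349 in knockout. Of those markers miR-294, which is also among the 9 repeat miRNAs above, miR-290-5p and miR-291b-5p were detected, and the other 12, all of the miR-302 members included, were detected on no array. The direction was not shared by all: miR-294 and miR-291b-5p were called higher at 12 h in both genotypes, while miR-290-5p was called lower in wild type and did not pass in knockout. Of 5 tested neural markers 2 were lower in each genotype, and the 1 tested muscle marker, miR-206, was higher in both. The summed fibroblast markers went down, from 18818 to 20102 to between 12675 and 13516 in wild type and from 25688 to 26564 to between 11829 and 14664 in knockout. The part of viral probe signal, of array total signal and of other cells in the members' rises was not tested.

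**Figure D5:**
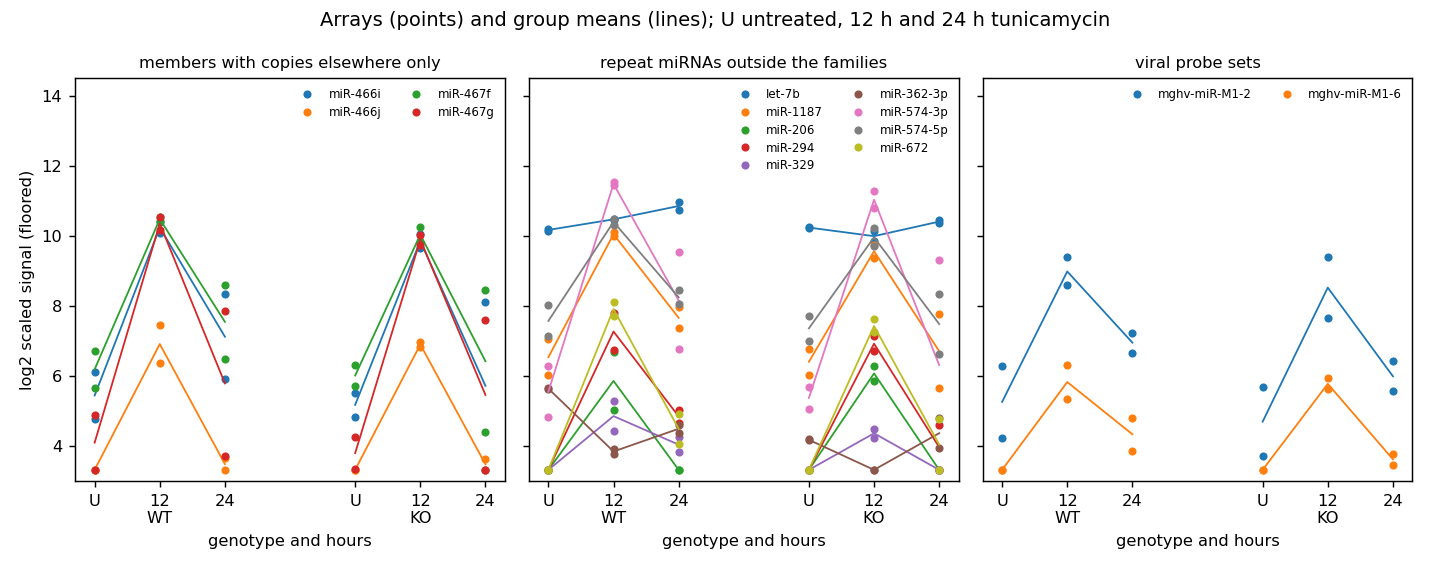
Log2 scaled signal, set to the floor where lower, of the 4 tested members with copies elsewhere only (left), the 9 tested miRNAs outside the families with UGUGUG or ACACAC (middle) and 2 viral probe sets (right) on every array (points), with group means (lines). All left and right panel curves and 7 of 9 in the middle peak at 12 h in both genotypes. The 2 viral probe sets were picked because their 12 h signals lay above all untreated ones, so their rise was set by that choice. The 9 in the middle come from the 56 miRNAs outside the families that were matched to a mature sequence. On the left miR-466j and miR-467g, and in the middle miR-294, miR-329 and miR-672, were tested only because of their 12 h arrays. miR-362-3p is lower at 12 h than untreated, and let-7b differs from untreated at 12 h by 0.30 and -0.24 without passing.

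The next comparison asked what was left after 24 h. No member was higher than untreated at 24 h in either genotype and 3 were lower in each, where 2.73% and 14.8% of all tested miRNAs were higher and lower in wild type (17.6% in either direction) and 3.12% and 10.9% in knockout (14.1%). At an unadjusted limma p under 0.05 there were 8 of the 29 members in each genotype. Of the 227 other tested miRNAs there were 69 in wild type and 49 in knockout. The median log2 difference of the members was 0.41 in wild type and 0.27 in knockout. The 3 lower members were miR-466a-3p, miR-467a and miR-467b in both genotypes. miR-466a-3p had 142 and 88.3 at 24 h in wild type, against 306 and 303 untreated, and 91.8 and 76.6 in knockout, against 224 and 228. It fell by 1.44 (SE 0.26, limma adjusted p = 0.00910) and by 1.43 (SE 0.26, limma adjusted p = 0.0120).

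miR-467a had 32.3 and 11.2 at 24 h in wild type and 15.0 and 17.2 in knockout, all below its untreated arrays. It fell by 2.10 (SE 0.44, limma adjusted p = 0.0159) and by 1.76 (SE 0.44, limma adjusted p = 0.0416). miR-467b had 101 and 62.3 in wild type, with 44.5 and 62.0 in knockout, and fell by 1.38 (SE 0.33, limma adjusted p = 0.0264) and by 1.58 (SE 0.33, limma adjusted p = 0.0209). The falls did not hold in a genotype when either of its untreated arrays was left out. Leaving out single 24 h arrays moved the members' count in both genotypes, and the count over all tested miRNAs moved too. The absence of higher members at 24 h did not hold under all settings. With normexp 23 were higher in each genotype, and with floor values left out 3 were in wild type and 4 in knockout. Total gene signal gave 1 in knockout. Over all tested miRNAs, normexp called 189 of 256 in wild type and 188 of 256 in knockout, in either direction. With floor values left out 38 of 174 and 39 of 168 were called, and with total gene signal 59 of 256 in knockout. Leaving out a knockout array at 24 h also gave higher members, in wild type with either array and in knockout with the first.

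The 2 arrays of each 24 h group disagreed on the families. On the first wild type array, the 21 members that rose in both genotypes at 12 h had a median log2 difference from untreated cells of 0.00, and none was more than 1 higher. On the second the median was 0.96, and 10 were more than 1 higher. In knockout the medians were -0.48 and 1.39, with 0 and 12 members more than 1 higher. Of the 21 members, 13 and 19 were above the floor on the wild type arrays and 5 and 19 on the knockout arrays. The medians of the first arrays thus rest in part on values set to the floor. The first replicates of all tunicamycin groups came from one scan and the second from another, and the first wild type array at 24 h also had the lowest total signal of all arrays. Whether scan or experiment set this difference cannot be told apart.

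Between 12 h and 24 h, 16 of 29 members fell and none rose in wild type, where 18.8% of all tested miRNAs fell and 3.12% rose (21.9% together). In knockout 18 fell and none rose, against 21.9% and 17.6% (39.5% together). The median change was -3.0 for wild type and -3.19 for knockout. Both 24 h arrays were below both 12 h arrays in 25 of the 29 members in wild type, against 28.5% of all tested miRNAs, and in 26 of 29 in knockout, against 33.2%. These groups lie on the same slide, and each scan holds both times, so the change could be read within scans. In wild type 25 of 29 members were lower at 24 h in the first scan and 29 in the second. In knockout 27 and 26 were lower. The number of members called in wild type was 9 without the second 12 h array, 10 without the first 24 h array and 25 without the second knockout array at 24 h. In knockout it was 10 without either 12 h array.

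Members that fell from their 12 h level included some detected on all arrays. miR-669c fell by 2.57 (SE 0.72, limma adjusted p = 0.0426) in wild type, to 142 and 210, and by 3.19 (SE 0.72, limma adjusted p = 0.0157) in knockout, to 34.3 and 187. miR-466c-5p fell by 2.52 (SE 0.53, limma adjusted p = 0.0164) to 77.6 and 78.7 and by 3.15 (SE 0.53, limma adjusted p = 0.00524) to 20.4 and 77.1. miR-669a fell by 1.92 (SE 0.31, limma adjusted p = 0.00612) to 145 and 112 and by 2.21 (SE 0.31, limma adjusted p = 0.00352) to 59.2 and 107. The 5 members with the widest rises did not pass in wild type, among them miR-467b* with -4.96 (SE 1.74, limma adjusted p = 0.0910) and miR-467g with -4.57 (SE 1.67, limma adjusted p = 0.10), since their 24 h arrays lay far apart. miR-467a and miR-467b differed by -0.17 and 0.11 between the times in wild type, and by 0.68 and 0.63 in knockout, and did not pass.

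The design also asked which responses depended on XBP1. The difference between the genotypes' 12 h responses, wild type minus knockout, passed in 0 of 29 members with limma, where 5.86% of all tested miRNAs passed. At an unadjusted limma p under 0.05 there were 0 members, against 37 of the 227 other tested miRNAs. The median difference was 0.15 over the members, and single values ran from -0.68 (miR-467c) to 0.72 (miR-467b). Only for 2 members did the 95% interval of the difference lie within 1 log2 unit of 0. They were miR-466l, at 0.34 (-0.18 to 0.85), with both untreated groups under the floor, and miR-466a-3p, at 0.06 (-0.81 to 0.93). For miR-467b the interval was -0.38 to 1.82, for miR-669a -1.30 to 0.76, for miR-466j -1.10 to 1.12 and for miR-467b* -5.58 to 6.08. This fit did not pair same-numbered arrays. In it, the intervals of the members with the widest rises were too wide to show whether the responses were alike. Deviations of same-numbered arrays from their group means correlated between the genotypes by 0.867 untreated and 0.415 at 12 h. Taken within same-numbered arrays, the members' median difference of 12 h responses was -0.39 for replicate 1 and 0.62 for replicate 2. Leaving out either 12 h array of wild type cells gave calls among the members, but in opposite directions for the 2 arrays. The count over all tested miRNAs went up in both of these fits.

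At 24 h the difference of responses passed in 0 members with limma (4.69% of all tested miRNAs), and the median was 0.03. At an unadjusted limma p under 0.05 there were 0 members, against 30 of the 227 other tested miRNAs. Without the second knockout array at 24 h, 1 member was called. The widest values were 1.48 for miR-466f-3p (95% interval -4.53 to 7.49) and 1.46 for miR-466g (-4.35 to 7.27), 2 members whose knockout arrays at 24 h were 9.0 and 569 and 9.03 and 565.

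Knockout cells set directly against wild type cells gave 0 calls among the members in untreated cells with limma, where 12.5% of all tested miRNAs passed. There were also 0 at 12 h (5.08%) and 0 at 24 h (7.81%). At an unadjusted limma p under 0.05 there were 0, 2 and 0 members, against 54, 39 and 58 of the 227 other tested miRNAs. The members' median difference was -0.30 untreated, -0.42 at 12 h and -0.54 at 24 h, and that of the other tested miRNAs 0, -0.06 and 0. At 12 h all 29 members had a lower mean in knockout, with differences of -0.01 to -1.12, but within scans 19 of 29 were lower on the first pair of arrays and 29 on the second. The members' median on those pairs was -0.05 and -0.78, against 0 and -0.32 for the other tested miRNAs. The second pair was thus shifted down outside the families too. The 2 members with an unadjusted p under 0.05 were miR-467b (-1.12, SE 0.33, limma adjusted p = 0.111) and miR-467a (-1.09, SE 0.44, limma adjusted p = 0.270), the pair that fell at 12 h. The call counts depend on single arrays. Leaving out the first 12 h array of wild type cells gave lower calls at 12 h, whereas leaving out the second gave a higher call. A lower call at 12 h also came without either 24 h array of wild type cells or without the first of knockout cells. With the second 24 h array of knockout cells left out there were lower calls at 24 h and in untreated cells. The count over all tested miRNAs went up in each of these fits.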

How the data were processed

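Total RNA of 12 MEF samples was labelled with Cy3 and hybridised to 1-colour Agilent miRNA arrays, per the labels' protocols. Spot intensities were deposited as Agilent Feature Extraction 10.7.1.1 output, per the file headers and the submitters' processing notes. Log2 values in the table the authors deposited were those of the software's total gene signal (largest relative difference 7.94e-07), not normalized between arrays.

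Control spots and outlier spots were left out, processed intensities averaged per probe and summed per miRNA, and arrays scaled to the 75th percentile of 95 miRNAs detected on all arrays. Values under the 5th percentile of detected signals (3.33 in log2) were set to that floor. One limma 3.58.1 model (R 4.3.3, package data.table, version 1.17.8) with 6 group means, lmFit and eBayes with trend, was fitted to 256 mouse miRNAs (6 residual degrees of freedom), with Benjamini-Hochberg adjustment and a threshold of 0.05. The fit was tested on simulated data. Plots used matplotlib 3.10.9 in Python 3.11.15 with pandas 2.3.3. No spot was saturated.

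Members with a call against untreated cells were given array by array if detected on all arrays, among the 8 largest rises or 4 largest falls, or the other arm of such a precursor. The members and lists were chosen with earlier results of these data known. Coordinates are left out because no build is named in the files. Alternatives covered scaling, background correction, floor, filter, blocks and each array left out. Normexp used median spot and background signals in place of the planned mean signals.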

Additional observations from a re-analysis of the deposited data

Results flagged for a closer look

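The probes of 2 viral miRNAs, which belong to no comparison of the families, had a signal above that of the untreated arrays at 12 h of tunicamycin. They were picked from the 39 viral miRNAs for this rise and for detection on both 12 h arrays of a genotype. mcmv-miR-M23-1-5p, detected on the untreated arrays only, was lower at 12 h in both genotypes. For mghv-miR-M1-2 the 12 h mean was 3.72 log2 units higher than untreated in wild type and 3.83 higher in knockout. For mghv-miR-M1-6 it was 2.51 higher in wild type, with 40.8 and 79.6 against 4.99 and 6.84, and 2.45 higher in knockout, with 61.2 and 49.5 against 2.08 and 2.03. Untreated and tunicamycin arrays lay on different slides, and the part of this signal in the members' values was not tested.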

How the results depend on the processing

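Values near the floor limit these results: 18 of the 29 tested members were at it on at least 1 array. The members' 12 h median stayed positive under all alternatives run, from 1.07 to 4.01 in wild type and from 1.34 to 4.04 in knockout. Over all miRNAs, the 12 h median shifted by -0.63 and -0.54 with quantile normalization, -0.46 and -0.56 with the percentile over all mouse miRNAs, 1.32 and 0.89 with normexp and -1.27 and -1.53 without scaling, in wild type and knockout. At 12 h, the higher and lower calls were then 21 and 5 (wild type) and 21 and 5 (knockout) with quantile normalization, 21 and 5 and 20 and 5 with that percentile, 26 and 0 in each genotype with normexp, 19 and 0 (wild type) and 17 and 0 (knockout) with the total gene signal or deposited values, and 12 and 5 in each genotype without scaling. Over all 256 miRNAs the calls at 12 h, wild type then knockout, were 160 and 163 with quantile normalization and 144 and 156 with that percentile. They were 190 and 183 with normexp, 111 and 128 with the total gene signal and 176 and 196 without scaling. Testing only the 95 miRNAs detected on all arrays (9 members) gave 6 and 7 member calls at 12 h (40 and 48 of all 95). Between 12 h and 24 h it gave 6 and 8 (12 and 57 of all 95). Knockout against wild type at 12 h gave 1 (12 of all 95). That last member count was also 1 with the software's total gene signal and with the deposited log2 values, and the untreated count was 2 with the floor at the 25th percentile. Over all tested miRNAs these 2 comparisons gave 26 and 28 calls of 256. Members called at 24 h in wild type numbered 1 with quantile normalization, 0 with the percentile over all miRNAs, 23 with normexp, 5 with the 25th percentile floor, 7 with floor values left out and 9 without scaling. In knockout they numbered 0 with that percentile, 24 with normexp, 7 with floor values left out, 1 with all mouse miRNAs tested and 10 without scaling. Over all tested miRNAs the wild type calls were 35, 16, 189, 33, 38 (of 174) and 145 in the same order, of 256 unless given. Those of knockout were 16, 188, 39 (of 168), 23 (of 611) and 173. Signs turned for miR-466a-3p between 12 h and 24 h in knockout (0.038, percentile over all miRNAs), miR-466f-5p likewise (0.018, normexp), miR-467a at 12 h (0.48 and 0.36) and 24 h (0.48 and 0.62) with normexp and at 24 h in knockout (1.57, total gene signal and deposited values), and miR-669a at 12 h without scaling (-0.48 and -0.46). Except where fewer miRNAs were tested, the cause was not tested. The fit without scaling and the fixed scan term were chosen after seeing the data.

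With each array left out in turn, the calls ran from 13 to 25 (12 h wild type), 13 to 26 (12 h knockout), 0 to 9 and 0 to 6 (24 h), 9 to 25 and 10 to 25 (24 h against 12 h), 0 to 3 and 0 to 1 (difference of responses at 12 h and 24 h), and 0 to 1, 0 to 4 and 0 to 10 (knockout against wild type untreated, at 12 h and at 24 h). A lone array was then assumed to vary like the other groups, and the counts over all tested miRNAs moved in these fits too. With the replicate block 23 members were called at 12 h in each genotype, 15 and 18 between 12 h and 24 h, and 3 and 2 at 24 h. Same-numbered arrays of a slide share a scan. Deviations of same-numbered arrays from their group means correlated between the genotypes by 0.867 (untreated), 0.415 (12 h) and 0.522 (24 h), and over all pairs of groups by -0.547 to 0.867.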
